A study of Mus musculus with 10 samples.

Results

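To ask where Arid1a and Brg1 sit together on chromatin and where each was found without the other, the Arid1a and Brg1 ChIP-seq peak lists of WT AB17 cells were compared summit by summit on the 19 autosomes. The comparison took in 70157 Arid1a and 81227 Brg1 summits, 151384 together. The 8 peak lists of the series held 819400 summits over all chromosomes, the sex chromosomes included. A summit is the position of highest signal within a peak, and its strength is given as −log10 q, the confidence of the peak over input within its own library. A summit was called shared when the nearest summit of the other list lay at most 1 kb away, and unshared otherwise. A promoter summit lay within 2 kb of an annotated transcript start, and every other summit was called distal.

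AB17 is 1 line of primary hepatocytes from C57BL/6 mice with a floxed Arid1a gene (Arid1a fl/fl), immortalized with SV40 large T antigen and carrying activated H-Ras. Both libraries came from cells that had received Ad-GFP, an adenovirus without Cre, so that Arid1a was intact, and no knockout sample entered the comparison. The antibodies were raised against Arid1a and Brg1, and each list rests on 1 library. With single libraries no test was run, spread between cultures is unknown, and the intervals given with shares are 95% Wilson intervals that cover counting error only. Read depth is unknown from the lists, and a deeper library gives more and stronger peaks.

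SWI/SNF (BAF) complexes use the energy of ATP to slide and evict nucleosomes, which opens promoters and enhancers to transcription factors. Brg1, encoded by Smarca4, is one of the alternative ATPases that drive these complexes. Arid1a is a large subunit with a DNA-binding ARID domain that occurs in the canonical BAF form of the complex, whereas Brg1 is also built into forms that hold other subunits in place of Arid1a. In liver, Arid1a is known as a gene that is often mutated in hepatocellular carcinoma.

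The windows below hold 40 bp on each side of a summit and were read from the RefSeq GRCm38 (mm10) assembly on its top strand. The first group was chosen because these sites carried some of the highest values in both lists. They lay in the long noncoding RNAs Neat1 and Malat1, at the start of Actb, and past the end of Hnrnpa3. Capitals mark CCCGCCC (the GC box read by Sp and Klf factors) and CCGGAAG (the ETS element), on either strand and directly adjoining each other at Actb.

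Neat1, chr19:5845059-5845139: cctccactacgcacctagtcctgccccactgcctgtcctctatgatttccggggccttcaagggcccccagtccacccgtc
Malat1, chr19:5802353-5802433: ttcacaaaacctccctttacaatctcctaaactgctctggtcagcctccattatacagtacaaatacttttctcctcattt
Actb, chr5:142905999-142906079: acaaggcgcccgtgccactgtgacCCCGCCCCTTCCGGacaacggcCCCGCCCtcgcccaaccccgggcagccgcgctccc
Hnrnpa3, chr2:75669694-75669774: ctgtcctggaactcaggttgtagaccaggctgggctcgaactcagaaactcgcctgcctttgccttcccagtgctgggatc

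The second group shows distal summits that carry the AP-1 element, TGACTCA or its reverse TGAGTCA, in capitals (at Lama2 the Fox element is in capitals too). AP-1 is the family of Jun and Fos dimers that act downstream of Ras. The windows named Ccn2, Lama2 and Col5a1 belong to shared summits, those named Phactr4, Tulp4 and Map2k4 to unshared Brg1 summits, and the window named Slc25a40 to an unshared Arid1a summit. Each is named by its nearest coding start. That start lay 193324 bp away for Lama2, where the summit is within the gene, and 135973 bp away for Map2k4, where it is intergenic. They were chosen, after the counts of elements were known, among the 3 strongest such summits of each class.

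Ccn2, shared Arid1a, chr10:24600212-24600292: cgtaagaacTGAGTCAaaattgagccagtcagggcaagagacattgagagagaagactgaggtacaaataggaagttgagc
Lama2, shared Brg1, chr10:27249929-27250009: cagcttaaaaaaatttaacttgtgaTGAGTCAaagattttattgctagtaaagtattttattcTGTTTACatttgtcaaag
Col5a1, shared Brg1, chr2:27858718-27858798: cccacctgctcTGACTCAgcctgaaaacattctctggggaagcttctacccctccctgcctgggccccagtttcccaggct
Phactr4, unshared Brg1, chr4:132403525-132403605: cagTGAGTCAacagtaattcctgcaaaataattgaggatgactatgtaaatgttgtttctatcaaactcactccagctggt
Tulp4, unshared Brg1, chr17:6141530-6141610: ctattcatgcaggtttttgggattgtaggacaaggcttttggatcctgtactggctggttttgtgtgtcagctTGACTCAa
Map2k4, unshared Brg1, chr11:65561001-65561081: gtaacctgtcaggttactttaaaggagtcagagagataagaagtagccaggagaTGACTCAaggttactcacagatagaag
Slc25a40, unshared Arid1a, chr5:8474186-8474266: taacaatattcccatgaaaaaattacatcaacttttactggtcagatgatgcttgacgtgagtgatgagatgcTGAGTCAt

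First, the extent of sharing was measured. Of the Arid1a summits, 21826 (31.1%, interval 30.8 to 31.5%) had a Brg1 summit within 1 kb, and of the Brg1 summits, 22379 (27.6%, interval 27.2 to 27.9%) had an Arid1a summit. The remaining 48331 Arid1a and 58848 Brg1 summits were unshared. The partner list was then moved by 20 kb in either direction. The move kept broad regional density but lost exact position, including position relative to transcript starts. After it, 15.0% of Arid1a and 13.1% of Brg1 summits still found a partner, which left the observed shares 2.08 and 2.10 times higher. The ratio was larger at promoters, where 51.7% of Arid1a summits were shared against 16.3% after the move, than at distal positions, where 24.0% were shared against 14.5%. For Brg1 the promoter values were 44.98% against 13.8%, and the distal values were 21.3% against 12.9%. Because the move takes partner summits away from starts, the part of a common preference for starts in the promoter ratios was not tested.

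The limit of 1 kb did not fall in a gap of the distribution. There were 1117 Arid1a summits whose partner lay 900 to 1000 bp away, with a median −log10 q of 2.70 and 34.7% at promoters. Just outside the limit, 1094 Arid1a summits had a partner 1000 to 1100 bp away, again with a median of 2.70 and 35.0% at promoters. For Brg1, 1294 summits lay inside and 1281 outside in the same steps, with promoter shares of 38.1% and 36.5%. Among shared Arid1a summits the median gap was 341 bp, and it narrowed to 232 bp for those with a −log10 q of at least 5 and to 111 bp for the 71 with at least 10.

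Next, strength was compared between the classes. The median Arid1a summit was hardly stronger when shared (2.70) than when unshared (2.65), whereas the median Brg1 summit differed more (3.0 against 2.56). This order of the proteins depended on the summits that entered, since among the 50000 strongest of each list the medians differed by 0.518 for Arid1a and by 0.186 for Brg1. The lower quartile was 2.13 in both Arid1a classes, and 2.34 for shared and 2.003 for unshared Brg1 summits. A −log10 q of at least 5 was reached by 5.98% of shared and 0.898% of unshared Arid1a summits, and by 9.54% of shared and 1.81% of unshared Brg1 summits.

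Above 2.5, the share of summits with a partner rose with strength in both lists, as the plot of sharing by strength shows. Of the Arid1a summits, 25.6% were shared under 2 and 25.4% between 2 and 2.5. This share was 35.8% between 3 and 4, 55.03% between 4 and 5, 71.9% between 5 and 7, and 93.4% (71 of 76) at 10 and over. For Brg1 the share first fell, from 23.1% (interval 22.2 to 23.9%) under 2 to 20.5% (19.9 to 21.1%) between 2 and 2.5, and then rose to 93.2% (109 of 117) at 10 and over. The rise was also present within each position class. At promoters, Arid1a sharing went from 41.3% under 2 to 95.4% at 10 and over, and at distal positions from 20.5% to 81.8%, the latter over only 11 summits.

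**Figure D1:**
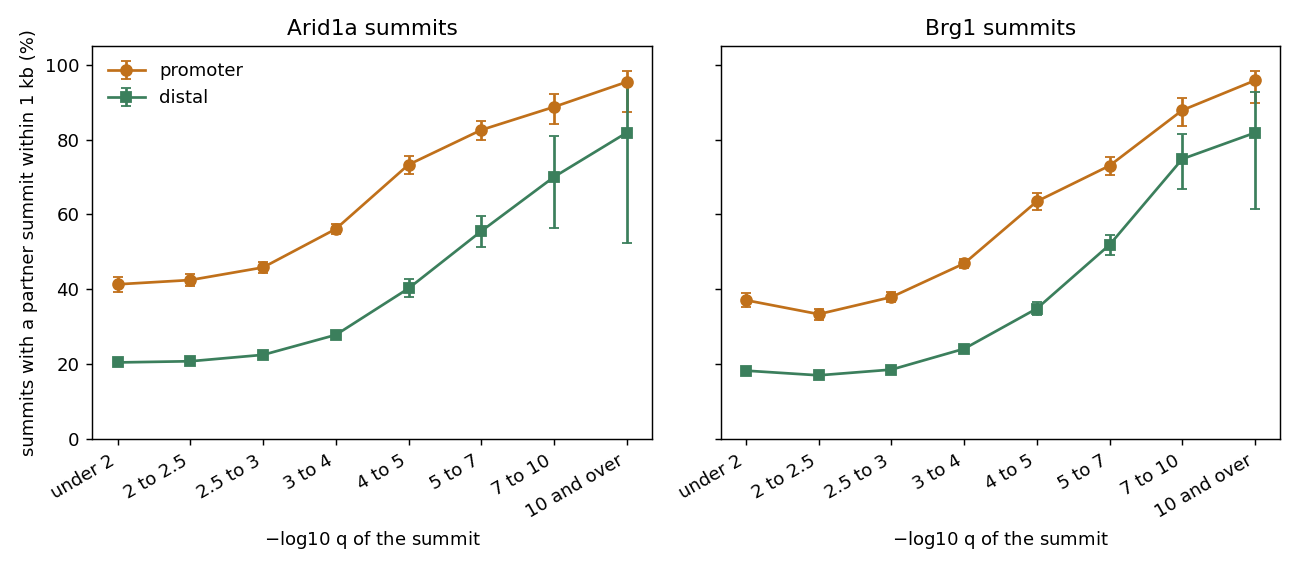
Share of Arid1a (left) and Brg1 (right) summits with a summit of the other list within 1 kb (vertical axis, %) by −log10 q of the summit (horizontal axis, 8 classes), for promoter and distal summits. Bars are 95% Wilson intervals (counting error only). In both panels sharing was higher at promoters than at distal positions in every strength class, and it reached 95.4% (Arid1a) and 95.8% (Brg1) for promoter summits at 10 and over.

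Partners of strong summits were mostly of intermediate strength. Of the 1740 Arid1a summits with a −log10 q of at least 5, 1306 had a Brg1 partner, and for 466 (26.8%) the nearest partner also reached 5. Counting any Brg1 summit within 1 kb, 29.0% had one at 5 or more. The nearest partners of the 1306 had a median of 4.05, against 2.56 over all Brg1 summits, and 12.1% of them were under 2.5, against 35.6% of all Brg1 summits. Of the 3200 Brg1 summits at 5 or more, 2134 had an Arid1a partner, and for 451 (14.1%) the nearest partner reached 5. Counting any Arid1a summit within 1 kb, 15.8% had one at 5 or more. The nearest partners of the 2134 had a median of 3.33, against 2.70 over all Arid1a summits, and 19.9% of them were under 2.5, against 40.2% of all Arid1a summits. When summits that were each other's nearest neighbour were paired, 19567 pairs were obtained, 8216 at promoters and 11351 at distal positions. Across these pairs, which share a cell line and a caller, the rank correlation of the Arid1a and Brg1 values was 0.207 at promoters and 0.087 at distal positions, with many tied values. It was 0.497 among the 420 pairs with at least 5 in both lists, of which 344 (81.9%) lay at promoters.

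In 36 pairs both summits reached 10, and 33 of them lay at promoters. The nearest annotated start belonged to a protein-coding gene in 18 of these pairs, to a small nuclear RNA (snRNA, the RNA core of the splicing machinery) in 11, and to a small nucleolar RNA in 2. None of the 36 had a WT H3K27me3 summit within 1 kb. A WT Rad21 summit lay within 1 kb of 22, a WT Ctcf summit of 20 and a WT H3K9me3 summit of 17. Of the 960 shared Arid1a promoter summits of at least 5, 3.1% had an H3K27me3 summit within 1 kb. For Rad21, Ctcf and H3K9me3 this share was 75.3%, 57.4% and 58.2%. As parts of the 36 pairs, none of the counts exceeded these shares. With so low an H3K27me3 share, its absence does not set the 36 pairs apart.

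The highest pair of all lay within an exon of Neat1, the RNA scaffold of nuclear paraspeckles, where Arid1a reached 66.2 and Brg1 78.6 with summits 149 bp apart. Malat1, an abundant nuclear RNA encoded by a neighbouring gene, followed with an Arid1a value of 45.5 and a Brg1 value of 66.5, and these summits were only 8 bp apart. At Actb, which encodes cytoplasmic β-actin, Arid1a stood at 32.3 and Brg1 at 27.8. Junb, an AP-1 subunit, had values of 20.9 for Arid1a and 20.3 for Brg1. All 4 of these loci ranked high in both lists, and no other pair came near the 2 noncoding RNAs.

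The snRNA genes formed a group of their own among the strongest pairs. Beside Rnu1a1, which encodes U1 RNA, Arid1a reached 20.8 and Brg1 34.2. At Rnu2-10, a U2 gene, the values were 16.9 and 30.4. At Rnu12, which encodes U12 RNA, the values were 12.2 and 15.4. Near Rnu5g, a U5 gene, they were 14.4 and 19.1. snRNA genes occur in several near-identical copies and reads can be split among them, so the value of any single copy is uncertain. The nearest coding genes of the first 2 sites were Tex14 and Arl4d, whose starts lay 3943 and 6620 bp away.

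The other promoter pairs at 10 or more included genes with housekeeping roles. Rplp0, the ribosomal stalk protein, had an Arid1a value of 15.2 and a Brg1 value of 19.7. Polr2a, the largest subunit of RNA polymerase II, had 14.8 and 15.2. Hspa8, the constitutive Hsc70 chaperone, stood at 14.4 and 13.9, and the ferritin chains Fth1 and Ftl1 at 11.6 and 15.5 and at 11.5 and 14.9. Ubb, a ubiquitin gene, reached 11.1 and 11.6. Parp16, Rdm1, Polg2, Gcn1l1, Id3, Atf4 and Hexim1 completed the coding promoters together with Tex14. The site nearest to Rdm1, with values of 23.6 and 28.0, and the Tex14 and Arl4d sites all lay in the parts of chromosome 11 that hold the U1 and U2 genes.

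**Figure D2:**
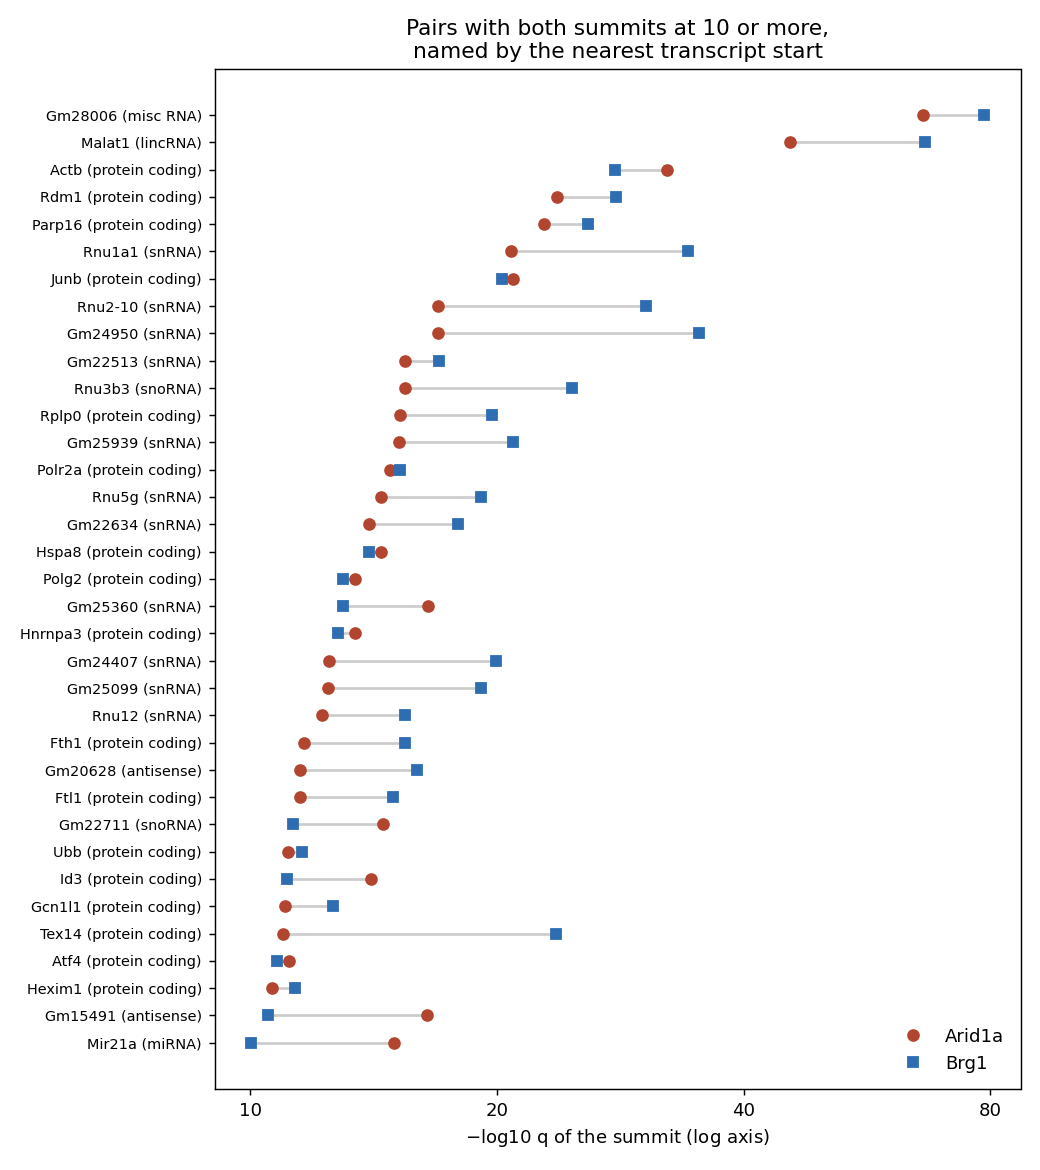
The plot shows 35 of the 36 mutual pairs with a −log10 q of at least 10 in both lists (horizontal log axis), named by the nearest transcript start and its type. Circles are Arid1a and squares are Brg1. The top pair, next to Gm28006, lies within Neat1 (66.2 and 78.6), and 11 of the 36 lie nearest to snRNA genes.

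Next, position was examined. A larger part of the shared than of the unshared summits lay at promoters, with 42.9% (interval 42.2 to 43.5%) against 18.1% (17.8 to 18.5%) for Arid1a, and 43.1% (42.5 to 43.7%) against 20.1% (19.7 to 20.4%) for Brg1. The shared class had the higher promoter share on each of the 19 autosomes in both lists. The separation was steepest at the start itself. Within 500 bp of a start lay 24.6% of shared and 6.65% of unshared Arid1a summits, and 23.7% of shared and 7.37% of unshared Brg1 summits. In the profile around starts, shared and unshared summits of both lists peaked in the first 500 bp downstream, with 14.6% of shared and 3.70% of unshared Arid1a summits there. Over the whole promoter window of 2 kb on each side, 58.2% of shared and 54.0% of unshared Arid1a promoter summits lay on the downstream side. The median distance to a start was 3218 bp for shared and 10109 bp for unshared Arid1a summits.

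**Figure D3:**
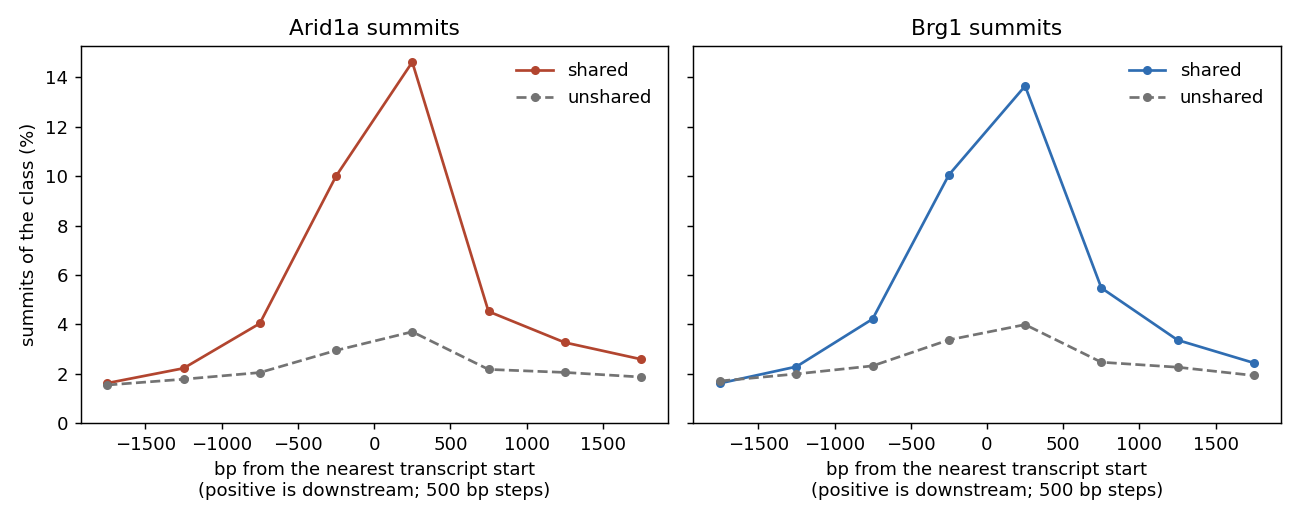
Share of each class of Arid1a (left) and Brg1 (right) summits (vertical axis, %) by signed distance to the nearest transcript start (horizontal axis, bp, steps of 500 bp). Solid lines are shared and dashed lines unshared summits. The classes nearly meet 1500 to 2000 bp upstream (1.62% and 1.55% for Arid1a), stand at 4.04% and 2.05% 500 to 1000 bp upstream, and are farthest apart within 500 bp of the start, where 24.6% of shared and 6.65% of unshared Arid1a summits lay.

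The promoter shares were also compared within strength classes. Among Arid1a summits under 2.5, 36.8% of shared and 17.3% of unshared ones lay at promoters, and among those at 5 or more, 73.5% and 40.3% did. The corresponding Brg1 values were 36.9% against 18.8% under 2.5, and 63.1% against 38.1% at 5 or more. Shared promoter summits lay in more GC-rich sequence, with a median GC content of 52.5% against 45.7% over 250 bp on each side for Arid1a, and 51.5% against 45.7% for Brg1. Fewer shared than unshared summits fell on repeats (19.2% against 28.8% for Arid1a and 19.8% against 26.7% for Brg1).

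Summits of other WT lists accompanied the shared class. Rad21, a cohesin subunit, lay within 1 kb of 44.3% of shared and 16.3% of unshared Arid1a summits, and Ctcf, a zinc finger protein of loop anchors, within 1 kb of 32.3% and 13.5%. For Brg1 the Rad21 values were 44.6% and 20.9%, and the Ctcf values 32.9% and 16.4%. H3K9me3, a mark of constitutive heterochromatin, was also nearer to the shared class, at 36.2% against 20.2% for Arid1a and 36.0% against 21.7% for Brg1. H3K27me3, the Polycomb mark, went the other way, at 2.13% against 4.96% for Arid1a and 2.20% against 4.05% for Brg1. The lists came from the same cells and caller, and the part that regions of generally high signal have in these shares was not tested. Without the summits near H3K9me3, 25.1% of Arid1a and 22.3% of Brg1 summits were shared.

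Distal shared summits were further described by their place relative to gene ends, a feature examined after the strongest sites had been seen. In the first 5 kb past the end of a coding gene lay 10.4% (interval 9.84 to 10.9%) of shared and 5.56% (5.34 to 5.79%) of unshared distal Arid1a summits. Positions moved by 20 kb gave 5.55% and 4.45%. For Brg1 the shares were 10.5% and 5.43%. Among distal summits of at least 5, the share was 26.9% for shared and 11.2% for unshared Arid1a summits, and 18.1% of shared and 66 of 660 unshared ones for Brg1. Of the 76 distal pairs with both summits at 5 or more, 32 (42.1%, interval 31.6 to 53.3%) lay there, against 9.87% of the moved positions.

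The strongest distal pairs gave examples. The highest lay 7245 bp downstream of the start of Hnrnpa3, an RNA-binding protein of heterogeneous nuclear ribonucleoproteins, in sequence past its end, with an Arid1a value of 13.4 and a Brg1 value of 12.8. Beside Bsg, which encodes the membrane glycoprotein basigin, the values were 8.66 and 9.09. Within the Hspa8 gene, close to a small nucleolar RNA, they were 9.60 and 16.3, and in the Hist2h2bb histone cluster 11.5 and 16.0. The Flt1 pair (8.29 and 9.16) fell on a repeat within an intron, where reads cannot be placed with certainty. The pairs with the nearest coding start at Rpusd4 (11.96 and 9.87), Ctdsp1 (13.3 and 8.33), Sorl1 (10.3 and 8.15) and Vps45 (8.08 and 8.70) were also among the 10 highest. That start lay 30230 bp away for Rpusd4 and 380122 bp away for Sorl1.

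Furthermore, the strongest unshared summits were inspected one by one. The highest unshared Arid1a summit, at 30.2, lay 2187 bp downstream of Mir21a, the gene of an oncogenic microRNA, past the end of Vmp1. A Brg1 summit of 18.9 lay 1736 bp from it, and both were counted as unshared. At Ppp1r10, which encodes a nuclear regulator of protein phosphatase 1, an Arid1a summit of 15.4 and a Brg1 summit of 19.4 lay 1265 bp apart. At Hnrnpa2b1, the unshared summits of 12.4 for Arid1a and 11.1 for Brg1 lay 1350 bp apart past the gene's end. At H3f3b, which encodes histone H3.3, Arid1a (11.6) sat at the start and Brg1 (12.5) lay 3060 bp downstream of it. The names of the genes were therefore the same in both unshared lists at 4 of these loci.

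The other unshared sites of the highest rank were spread over further loci. For Arid1a these lay near Rdm1 (14.0), Setd1b (9.68, with a Brg1 summit of 11.0 at 1098 bp), Zbtb37 (9.60) and Chaf1a (8.73). Another Arid1a site (8.69) had its nearest coding start, that of 1700001O22Rik, 88674 bp away. For Brg1 they lay upstream of Malat1 (36.1, nearest Arid1a summit 7839 bp away), at Hist2h3c2 (17.7), Cbx5 (10.2), Stk40 (10.02) and Tnfaip6 (9.38), and near Apbb2 (9.38). Of the 434 unshared Arid1a summits with a −log10 q of at least 5, 162 (37.3%) had a Brg1 summit within 2 kb, and of the 1066 such Brg1 summits, 327 (30.7%) had an Arid1a summit within 2 kb. Without a partner inside 10 kb, the highest Arid1a summits had their nearest coding starts at Chaf1a (8.73), Cd180 (8.57) and Trp53rka (8.22). The Cd180 start lay 306524 bp away. The highest Brg1 summits of this kind were those in Aff3 (8.40), near Ckap2l (8.40) and near Misp (8.38). This set of both lists was chosen after the values were seen.

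To characterise the sequences, 14 elements were searched within 100 bp of each summit on both strands, and the same windows moved by 2 kb gave the local background. At promoters, the GC box CCCGCCC was found at 13.7% (interval 13.0 to 14.4%) of shared and 5.61% (5.14 to 6.11%) of unshared Arid1a summits, with 3.28% and 2.56% in the moved windows. The ETS element CCGGAAG was found at 4.65% and 1.96%, with 1.18% and 1.19% in the moved windows. Brg1 promoter summits gave 12.3% and 5.31% for the GC box and 4.57% and 2.13% for the ETS element. Around the starts of all coding genes the GC box occurred in 28.6% and the ETS element in 9.78%. GC content differed between the same classes, as given above, and its part in these shares was not tested.

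At shared distal summits the AP-1 element had the largest excess over the moved windows in percentage points among the 14. It was present at 5.89% (interval 5.49 to 6.31%) of shared and 3.68% (3.50 to 3.87%) of unshared Arid1a summits, against 3.61% and 3.58% in the moved windows. For Brg1 it was present at 6.38% (5.97 to 6.82%) of shared and 4.65% (4.47 to 4.85%) of unshared summits, against 3.53% and 3.63%. The lists parted among strong distal summits. Of the 660 unshared Brg1 summits with at least 5, 11.1% (8.89 to 13.7%) held the element, and of the 259 unshared Arid1a summits, 3.09% (1.57 to 5.98%), against 4.55% and 6.18% in the moved windows. The shared summits of this strength stood between them, at 8.12% for Brg1 and 7.51% for Arid1a. The Tead element ACATTCC, read by the partners of Yap, was found at 3.41% of shared and 2.93% of unshared distal Arid1a summits, and the moved windows gave 2.94% and 2.63%. Of the elements of hepatocyte factors, Fox (TGTTTAC) was found at 3.40% of shared distal Arid1a summits and 3.07% of the moved windows, and Cebp (TTGCNNCAA) at 1.72% and 1.62%. The shares were 0.25% and 0.23% for Hnf4 (CAAAGTCCA), and 0.76% and 0.75% for Hnf1 (GTTAATNAT).

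**Figure D4:**
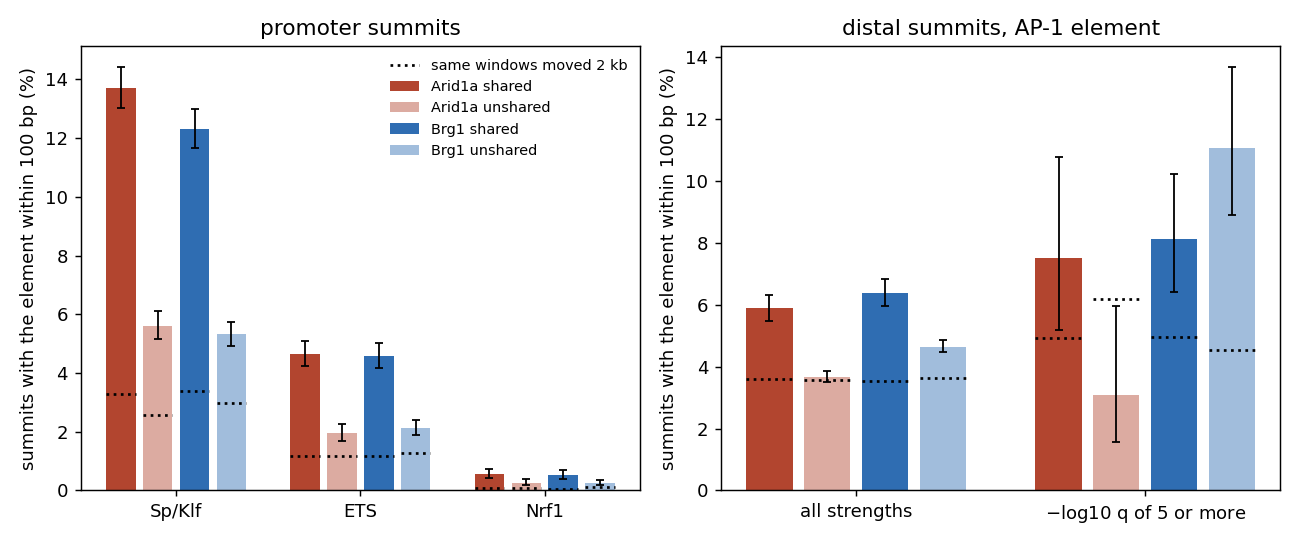
Share of summits with an element within 100 bp (vertical axes, %), for 3 elements at promoter summits (left) and for AP-1 at distal summits of all strengths and of at least 5 (right). Dark bars are shared and light bars unshared summits, error bars are 95% Wilson intervals (counting error only), and dotted lines are the same windows moved by 2 kb. At strong distal summits, AP-1 was at 11.1% of unshared Brg1 and 3.09% of unshared Arid1a summits.

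The classes were then carried over to genes. Of 20780 autosomal protein-coding genes, 5900 (28.4%) had a shared Arid1a and a shared Brg1 summit within 2 kb of a start. This count was 3266 without summits near H3K9me3 and 389 with a −log10 q of at least 5 in both lists. Another 1305 (6.28%) had a summit of each list but none shared in this way, 1914 (9.21%) had Arid1a summits only, 2717 (13.1%) had Brg1 summits only, and 8944 (43.04%) had neither. Genes with CpG-rich starts carried shared sites more often than others, with 46.1% (interval 45.04 to 47.2%) of 8222 against 16.8% (16.1 to 17.4%) of 12558. A WT H3K27me3 summit lay at the starts of 10.6% of genes with shared sites, 31.0% of those with Arid1a only, 24.9% of those with Brg1 only and 38.5% of those with neither. A Rad21 summit lay at the starts of 88.9% of genes with shared sites and 84.5% of those with both proteins but no shared site. The Rad21 share was 68.4% with Arid1a only, 70.8% with Brg1 only, 29.9% with neither and 59.0% over all genes. Ctcf and H3K9me3 differed in the same direction. A Ctcf summit lay at the starts of 79.4% of genes with shared sites, 27.7% of those with neither and 52.6% of all genes. For H3K9me3 these values were 75.1%, 27.5% and 50.2%.

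Among 29 gene lists, those of the Ras and stress response were well represented with shared sites, to be read against the 28.4% of all genes and the 46.1% of genes with CpG-rich starts. Immediate early genes, which are switched on within minutes of growth factor signals, had shared sites at 13 of 16, and the other 3 (Egr2, Egr3 and Klf2) had Brg1 only. Ier3 (Arid1a 10.5, Brg1 7.56), Gadd45b (4.80 and 10.2), Klf10 (5.44 and 5.20) and Myc (4.70 and 5.20) were the highest. AP-1 factors had them at 9 of 13, led by Junb and by Jund (14.5 and 7.21), with Fosl2 (5.56 and 6.41) and Fos (5.44 and 4.49) behind. Feedback and target genes of the Ras-MAPK pathway had them at 12 of 18. There, the nuclear regulator Phlda1 stood at 6.65 and 9.88, the EGFR ligand Ereg at 5.97 and 6.59, and the Erk phosphatase Dusp6 at 4.42 and 9.78.

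Genes of the cytoskeleton and of Yap signalling also had shared sites at most members. Of the actin and focal adhesion genes, 18 of 22 had shared sites, with Ezr, a linker of actin to the membrane (7.87 and 6.35), Actg1 (6.44 and 6.16), Tln1 (5.92 and 7.15) and Tpm1 (5.76 and 6.41) behind Actb. Of the Yap and Tead target genes, 10 of 14 had them, and the highest were the angiomotin relative Amotl2 (7.98 and 9.31) and Ankrd1 (4.13 and 7.72). Of the genes of the epithelial-mesenchymal transition, 13 of 20 had them, among them the matrix genes Col1a1 (7.61 and 7.04) and Fn1 (6.44 and 9.27) and the filament gene Vim (4.80 and 8.10). These lists also had distal pairs nearby. The nearest coding start within 50 kb of a distal pair belonged to 4160 (20.02%) of all genes, but to 11 of the 14 Yap and Tead targets, 16 of the 22 actin genes, 13 of the 18 Ras-MAPK genes and 14 of the 20 genes of the epithelial-mesenchymal transition.

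Lists of genes of growth and maintenance differed among themselves, to be read against the same 28.4% of all genes and 46.1% of genes with CpG-rich starts. Cytosolic ribosomal protein genes had shared sites at 61 of 78, with Rps18 (7.87 and 12.5) and Rpl12 (7.17 and 7.10) next to Rplp0, whereas mitochondrial ribosomal protein genes had them at 29 of 78, led by Mrps18b (7.98 and 4.51) and Mrpl12 (5.09 and 4.52). Chaperones and stress genes had them at 15 of 17, among them Hspa8, Atf4 (11.2 and 10.8) and Hsp90ab1 (6.39 and 9.38), and only Hspa1a, which is nearly identical to Hspa1b so that reads may not be placed, had neither protein. DNA replication genes had them at 24 of 33 (Rfc4, 6.22 and 6.46; Mcm4, 5.63 and 5.63). The p53 pathway followed with 12 of 19, of which Mdm2, the p53 ubiquitin ligase, stood at 5.44 and 8.997 and Cdkn1a at 2.56 and 9.65. Glycolysis had 9 of 16 (Gapdh, 7.87 and 13.0), the spliceosome 26 of 45, proteasome subunits 21 of 38, RNA polymerase II and general factors 25 of 49, cholesterol synthesis 9 of 20 (Insig1, 8.57 and 8.16), and oxidative phosphorylation 39 of 90. Cohesin and Ctcf genes had 7 of 12, Hox genes 16 of 39, and Zfp genes 124 of 358. Of members with CpG-rich starts, 47.1% of oxidative phosphorylation and 43.6% of mitochondrial ribosomal protein genes had shared sites, near the value of all CpG-rich genes. That part was 30% for Hox and 53.7% for Zfp genes. In the other lists of this paragraph named so far, it ran from 60% (cohesin and Ctcf) to 87.5% (chaperones and stress genes). Olfactory and vomeronasal receptor genes, which are silent outside sensory neurons, had 3 of 1411.

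The genes of the complex itself were close to the background of CpG-rich genes. Of 26 SWI/SNF subunit genes, 13 had shared sites, and of the 21 with CpG-rich starts, 10 (47.6%) had them, against 46.1% of all CpG-rich genes. Among the 13 were Smarca4 (4.22 and 5.20), Arid1a (3.67 and 3.70) and Smarcb1 (3.37 and 4.34). Another 7 (all genes, 13.1%) had Brg1 only, among them Arid1b, the paralogue of Arid1a, and Pbrm1. Brd7 and Phf10 had Arid1a only. Actl6b and Dpf3, which belong to the neuronal and muscle forms of the complex, had neither.

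The label of the cells was checked against promoters of liver genes, since peak lists hold no expression. Of 21 hepatocyte transcription factor genes, 4 had shared sites, namely Xbp1 (3.71 and 7.87), Cebpb (4.45 and 2.36), Foxa2 (2.65 and 4.41) and Cebpa (2.56 and 3.10). Both proteins were found apart at 4 more, and 13 had neither, including Hnf4a, Foxa1, Foxa3, Prox1 and Onecut1. The shared part was 19.0% of this list against 28.4% of all genes. Of all genes, 6.28% had both proteins apart and 43.04% had neither. CpG-rich starts made up 38.1% of this list, close to the value for all genes given below. Plasma protein genes had shared sites at 3 of 23 (Apoh, Afp and Cp), and 17 had neither, including Alb, Apoa1, Apob and Serpina1a. Genes of hepatocyte metabolism had them at 5 of 23, the highest of them Cpt1a (3.71 and 3.70), and 15 had neither, including Cyp7a1, Cps1, G6pc, Pck1 and Tat. CpG-rich starts were rare in the last 2 of these lists (4.35% of each, against 39.6% of all genes). Their shares with shared sites, 13.0% and 21.7%, lay on either side of the 16.8% of all CpG-poor genes, of which 58.5% had neither protein.

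Markers of other liver cells were looked up in the same way. Stellate cell markers had shared sites at 3 of 10, namely the matrix genes Dcn (6.87 and 8.10) and Col1a2 (3.33 and 3.80) and the smooth muscle actin gene Acta2 (4.22 and 5.63), and Dcn was also nearest to 14 distal pairs. Endothelial markers had 1 of 10 (Flt1, 2.70 and 3.86), macrophage markers 1 of 10 (Cd68, 5.26 and 7.66) and cholangiocyte markers 1 of 8 (Spp1, 3.12 and 5.20). The stellate share of 30% (interval 10.8 to 60.3%) was near the 28.4% of all genes. However, all 3 of its shared genes had CpG-poor starts, and of all CpG-poor genes 16.8% had shared sites. These promoter counts rest on few genes and were not used to assign a cell type, and whether the genes were expressed was not tested here.

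**Figure D5:**
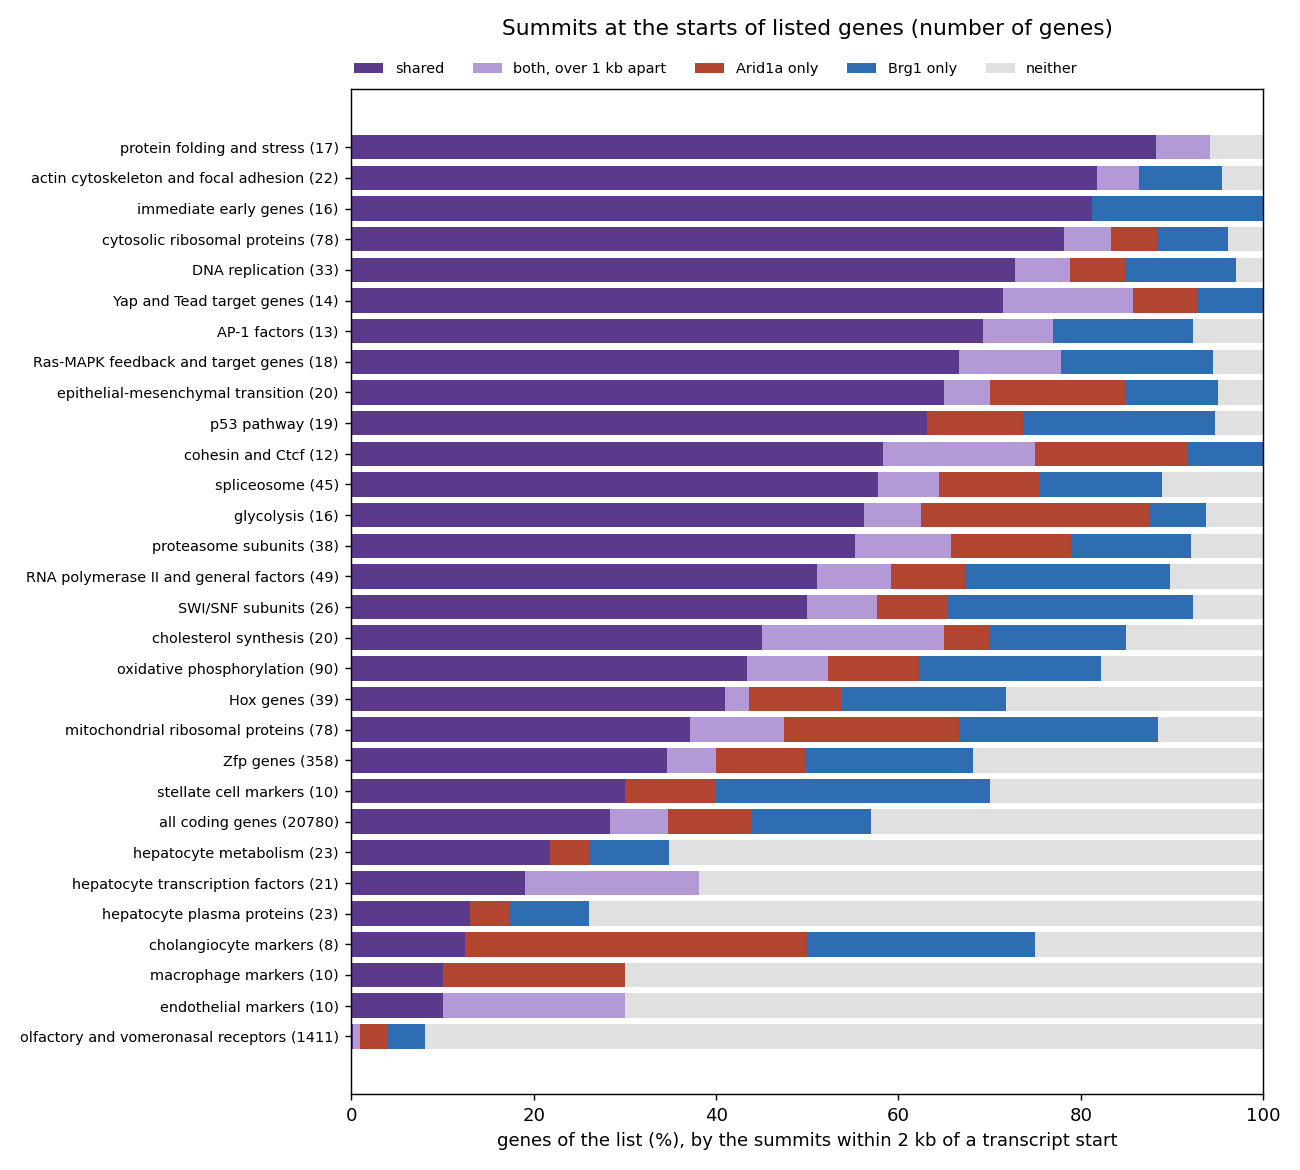
Genes of each list (number in brackets) divided by the summits within 2 kb of their transcript starts (horizontal axis, % of the list). Shared means a shared summit of each list. Lists run from 15 of 17 for protein folding and stress genes at the top to 3 of 1411 for olfactory and vomeronasal receptors at the bottom, with all 20780 coding genes at 28.4%.

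Distal pairs gathered at some genes more than at others. Of the 11351 distal pairs, 8707 had a coding start within 50 kb, 348 genes were nearest to at least 5 pairs and 63 to at least 10. Aldh1a1, a retinal dehydrogenase, had the most with 23 pairs. Cald1, the actin-binding caldesmon, and Phldb2, a regulator of cell adhesion, had 21 each, Ankrd17 and Apbb2 20 each, and Sema3c, a secreted guidance factor, 19. Timp3, an inhibitor of matrix proteases, and Vmp1 had 17 each. The highest lower value of a distal pair was 6.22 at Vmp1 and 5.85 at Timp3, and it stayed under 5 at the other 6 genes. The counts were scaled neither for gene length nor for summit density. Aldh1a1 (chromosome 19), Ankrd17, Apbb2 and Sema3c (5) and Timp3 (10) lie on the 3 densest autosomes, and Cald1, Phldb2 and Vmp1 do not. Those autosomes had 64.5 (19), 52.3 (5) and 59.6 (10) Arid1a summits per Mb, against 28.5 over all autosomes.

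Finally, the chromosomes were compared. The share of Arid1a summits with a Brg1 partner was lowest on chromosome 14 (18.6%), which had the fewest Arid1a summits per Mb (3.67), and highest on chromosome 19 (38.5%), which had the most (64.5). For Brg1 the corresponding shares were 13.9% and 36.7%. The promoter share of shared Arid1a summits ranged from 28.8% on chromosome 10 to 67.1% on chromosome 14. Without the 3 densest autosomes (5, 10 and 19), 30.3% of Arid1a and 26.2% of Brg1 summits were shared. Copy number in this immortalized line was not analysed here, and density and copy number cannot be told apart.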

How the data were processed

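The lists deposited by the authors held peak summits, each with its −log10 q-value from MACS2 against input. Per the study's methods and processing notes, reads were aligned to mm10 with Bowtie2, then filtered for quality (SAMtools) and PCR duplicates (Picard), and passed to MACS2 with default parameters (versions not given in the sources used here). The unit was read from the values, which begin above 1.30, the −log10 of 0.05. A −log10 q-value depends on depth, so the values of different lists are not on one scale. Single summits were ranked within their list, whereas pairs were ranked by the lower of their Arid1a and Brg1 values. The same cutoffs were applied to both lists.

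Here, samples were grouped by title, and partners, positions, genes and elements were counted in Python 3.11.15 with numpy 2.4.6, pandas 2.3.3, scipy 1.17.1 and matplotlib 3.10.9. Starts and genes were those of GENCODE vM21, with 27 entries of a repeated symbol left out. CpG-rich starts had at least 55% GC and an observed-to-expected CpG ratio of at least 0.6 over 500 bp on each side. The partner search was tested on simulated data.

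The members and lists were chosen with earlier results of these data known. Named sites were the 10 strongest promoter and 10 strongest distal pairs and the 5 strongest unshared summits of each list and position, 1 per nearest coding gene, without chromosome 18, and, for each gene list, the highest shared promoters and, in lists under 30 genes, members with neither protein. The pairs at 10 or more and the genes with most distal pairs were named after their values were seen. Symbols Cyr61 and Ctgf were not matched, and X-linked members of lists were left out. A few named sites and genes and 1 window are not reported here.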

Additional observations from a re-analysis of the deposited data

Results flagged for a closer look

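Summits on the sex chromosomes entered no comparison above, and their number exceeded the 3 counts that a count of 0 allows. On chromosome X, 218 Arid1a and 273 Brg1 summits were listed, which makes 1.27 and 1.60 per Mb against 28.5 and 33.0 per Mb over the autosomes. The WT Ctcf list held 11.3 per Mb on chromosome X against 36.2 over the autosomes, and the WT Rad21 list 8.69 against 40.6. On chromosome Y, 33 Arid1a and 27 Brg1 summits were listed. The number of X and Y copies in this line was not analysed here, and its part in these densities was not tested.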

How the results depend on the processing

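The 7 results on sharing, promoter share, strength and genes were recomputed under 10 alternatives, which gave 62 values. None changed sign, 23 stayed within the counting interval (or within 1.5 times, for genes) and 39 moved. The reported values were 31.1% of Arid1a and 27.6% of Brg1 summits shared, a shared minus unshared promoter share of 24.8 and 23.0 percentage points, a difference of median −log10 q of 0.0517 and 0.444, and 5900 genes (Arid1a first in each pair). A limit of 500 bp gave 20.7% and 17.9% shared and a Brg1 median difference of 0.542, and one of 2 kb gave 42.7% and 39.5%, promoter differences of 23.5 and 22.3, and a Brg1 median difference of 0.233. With a −log10 q of at least 5 in both lists, 29.0% and 15.8% were shared, the promoter differences were 21.1 and 30.2, the median differences 0.944 and 1.08, and 389 genes were left, as fewer summits entered. The 50000 strongest summits of each list gave 25.4% and 25.6%, promoter differences of 27.7 and 26.4, and median differences of 0.518 and 0.186, so that the larger difference passed from Brg1 to Arid1a. Without the 3 densest autosomes, the values were 30.3% and 26.2%, with promoter differences of 27.3 and 25.7. Merging summits of a list within 1 kb gave 28.1% and 24.98%, promoter differences of 23.2 and 21.6, and a Brg1 median difference of 0.542. Without summits near H3K9me3, 25.1% and 22.3% were shared, the promoter differences were 19.1 and 17.5, the Brg1 median difference was 0.255, and 3266 genes had a shared promoter site. Promoter windows of 1 kb gave differences of 22.3 and 21.2, and a window of 5 kb gave 22.3 for Brg1. Adding chromosomes X and Y moved no value. Beyond these constructions, the cause of a change was not tested. The Arid1a median difference, at most 0.0517 under 6 of the 8 alternatives run for it, is small beside the tied values of the list, and unknown depth limits every count. No paired analysis was possible because each group held 1 library and no test was run.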
